A study of Mus musculus with 6 samples.

Results

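The T cell receptor beta locus was read out as 53 of the 55450 genes in the expression table. They were all genes whose symbol begins with Trbv, Trbd or Trbj followed by a number, together with Trbc1 and Trbc2. They comprised 35 variable (V) segments, of which 22 are annotated as genes and 13 as pseudogenes, 2 diversity (D) segments, 14 joining (J) segments, of which 1 is a pseudogene, and 2 constant (C) regions. All lie on mouse chromosome 6 between positions 40891229 and 41558452 (GRCm38), a span of 667 kb. RNA-seq had been performed on resting CD8 T cells of the lymph node, gated as negative for Ly6C and CXCR3, both of them surface proteins of more differentiated CD8 cells. The 3 WT samples came from C57BL/6 mice, and the 3 CD103KO samples from Itgae-/- mice, which lack the integrin alpha E chain CD103. The cells were taken directly from mice, with no treatment named for either group. Age, sex, pooling of animals, the background strain of the CD103KO mice and the way the allele was made are not stated in the sources used here. No label ties a library to an animal of its own, so each p measures the spread between these samples, part or most of which may be technical.

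The beta chain of the T cell receptor is put together during development in the thymus by joining 1 V, 1 D and 1 J segment on the chromosome, and the joined exon is spliced to Trbc1 or Trbc2. The Trbj1 segments lie ahead of Trbc1 and the Trbj2 segments ahead of Trbc2, so a chain that uses a Trbj2 segment carries the Trbc2 constant region. Each mature T cell keeps the chain it made, so the RNA of a bulk naive population holds a census of V segment use weighted by the RNA of each cell. In these bulk samples fewer cells using a segment and less RNA per cell cannot be told apart. The comparison asks whether the use of V segments or of the constant regions differed in CD8 T cells without CD103.

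The D and J segments are shown first because they are the shortest genes of the locus and bear on which members could be counted. Capitals mark the longest run of G in the D segments, and the bases TTTGG or TTCGG that 11 of the 14 J segments hold on the plus strand in the window of their annotated exon. Trbd1 lies at chr6:41533201-41533212, Trbd2 at chr6:41542163-41542176, Trbj1-3 at chr6:41534323-41534372 and Trbj2-7 at chr6:41543810-41543856, all on the plus strand of GRCm38.
Trbd1: gggacaGGGGGc
Trbd2: gggactGGGGGGGc
Trbj1-3: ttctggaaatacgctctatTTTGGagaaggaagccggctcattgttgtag
Trbj2-7: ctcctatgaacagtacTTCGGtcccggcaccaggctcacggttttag

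The annotated 3′ ends of 4 V segments are shown because these segments had the smallest p-values of the comparison described further on. They are the last 45 bases of each V exon, where the germline part of the hypervariable CDR3 loop begins. Capitals mark TGTGC, whose first 3 bases are the codon of the conserved cysteine in the 4 segments shown. This motif, searched on the coding strand only, was held by the last 45 bases of 26 of the 35 V segments (74.3%), 19 of the 22 genes and 7 of the 13 pseudogenes. The search took no account of the reading frame, and in Trbv23 the motif is out of that frame. The windows are chr6:41271837-41271881 for Trbv29, chr6:41059842-41059886 for Trbv4, chr6:41163512-41163556 for Trbv17 and chr6:41048784-41048828 for Trbv3, all on the plus strand of GRCm38.
Trbv29: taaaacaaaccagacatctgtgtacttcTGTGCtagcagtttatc
Trbv4: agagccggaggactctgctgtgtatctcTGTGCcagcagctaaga
Trbv17: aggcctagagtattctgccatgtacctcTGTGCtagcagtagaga
Trbv3: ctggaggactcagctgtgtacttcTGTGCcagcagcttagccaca

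Total expected counts were 68292475 to 94347034 per library. The targeted gene, Itgae, ranged from 460 to 495 CPM (counts scaled to the TMM-adjusted size of a library) over the WT libraries, and from 61.1 to 67.9 CPM over those of CD103KO. Xist had 5012 counts in WT replicate 1 and 7628 in WT replicate 2, where the Y-linked Ddx3y had none, whereas WT replicate 3 and the CD103KO libraries had 0 to 2 Xist counts and 3612 to 4466 Ddx3y counts. WT replicate 3 thus did not come from the same animals as WT replicates 1 and 2. Sex, as read from these genes, was not balanced between the groups, so sex and genotype cannot be fully told apart. The 6 markers of CD8 alpha beta T cells summed to 5384 to 5603 CPM in WT and 5512 to 5612 CPM in CD103KO. The 5 B cell markers summed to 1.63 to 2.11 CPM in WT and 5.69 to 9.30 CPM in CD103KO. Of the 5, 3 (Cd79a, Fcer2a and Ms4a1) passed the edgeR test as higher in CD103KO, against 0.141% of all genes tested. None of the 5 was at 0 in every library. No member of the lists for CD4 T, gamma delta T, NKT and NK, myeloid or thymocyte markers passed, and the myeloid marker Cd14 was at 0 in every library.

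Counts on the locus came almost wholly from V and C segments. Trbv genes and pseudogenes together held 36412, 47030 and 40278 counts in the WT libraries (replicates 1 to 3, the order used throughout), and 36611, 34747 and 38530 in the CD103KO libraries. Trbc1 and Trbc2 together held 82885 to 112176 counts per library. Both D segments and 13 of the 14 J segments were at 0 in every library, and Trbj1-3 had 1 count, in CD103KO replicate 3. The J exons are 46 to 54 bases long. A count of 0 allows up to 0.0318 to 0.0439 CPM in these libraries, for counting error only. That is no ceiling on J segments in the RNA, since each joined chain holds 1 and both constant regions were counted in every library. With 1 J count in all, J usage and the share of the Trbj1 cluster could not be measured from these counts. Whether exon length played a part in the zeros was not tested, and the sources used here give no read length.

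The V, D, J and C genes together took 0.166%, 0.169% and 0.169% of all counts in WT and 0.171%, 0.172% and 0.171% in CD103KO. The CD103KO shares lay just above the WT shares, with means of 0.168% ± 0.00162 and 0.172% ± 0.000667 (SD, n = 3 each) and p = 0.1 by an exact two-sided permutation test, which cannot go lower with 3 against 3 samples. On TMM-scaled library sizes the same sum ran from 1653 to 1721 CPM in the WT and from 1706 to 1727 CPM in the CD103KO libraries, and the groups overlapped (exact two-sided permutation p = 0.2). The ratio of V to C counts was 0.418 ± 0.00135 in WT and 0.417 ± 0.00380 in CD103KO (SD, n = 3 each; exact two-sided permutation p = 0.9).

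V segment use was broad in both groups. The 19 segments with a mean share of at least 1% of all Trbv counts ranged from 1.37% for Trbv20 to 9.54% for Trbv3, and the next lower was Trbv23 at 0.261%. The 15 segments that reached 3% in either group held 90.8% of Trbv counts. Ranked by share per exon length, Trbv29 stood first at 9.75% ± 0.627 (SD over the 6 libraries), above Trbv13-1 at 8.67% ± 0.171 and Trbv3 at 8.16% ± 0.238. Trbv29 did not overlap with Trbv13-1 over the 6 libraries, while Trbv13-1 and Trbv3 did overlap. The annotated exons differ in the bases ahead of the coding part, so this order depends on the annotation as well as on use. The coding part starts at base 217 in Trbv2, 215 in Trbv19 and 105 in Trbv3, against base 10 in Trbv29 and 1 in Trbv13-2.

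Below these 3, the next 6 in the per-length order were Trbv14, Trbv13-3, Trbv15, Trbv13-2, Trbv16 and Trbv12-1, at mean per-length shares of 6.77% down to 6.16%, and each overlapped with its neighbour. Trbv12-2, Trbv1, Trbv4, Trbv19 and Trbv5 followed at 4.99% down to 4.11%, again with overlap between neighbours. Trbv17 at 3.65%, Trbv26 at 2.79% and Trbv31 at 2.06% each stood clear of the segment above and below. Trbv2 at 1.66% and Trbv20 at 1.60% closed the order and overlapped with each other. In all, 7 of the 18 neighbouring pairs did not overlap over the libraries.

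These levels were also set beside position on the chromosome. Over 21 tested V segments upstream of Trbd1, the distance to Trbd1 and the share per length had a Spearman's rho of 0.32, given as a description, since the segments share libraries and differ in base composition. Trbv1, the most distant V segment at 641 kb upstream of Trbd1, held 4.99% of Trbv counts, and Trbv30, the nearest upstream at 251 kb, held 0.198%. Per exon length these were 4.66% and 0.231%. On the same scale Trbv29, at 261 kb, held 9.75%, and Trbv2, at 485 kb, held 1.66%. Trbv31 is the only V segment on the minus strand and lies beyond Trbc2, where it is joined by inversion. Its share was 2.23%, 2.16% and 2.35% in WT and 2.21%, 2.17% and 2.13% in CD103KO, and the groups overlapped.

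**Figure D1:**
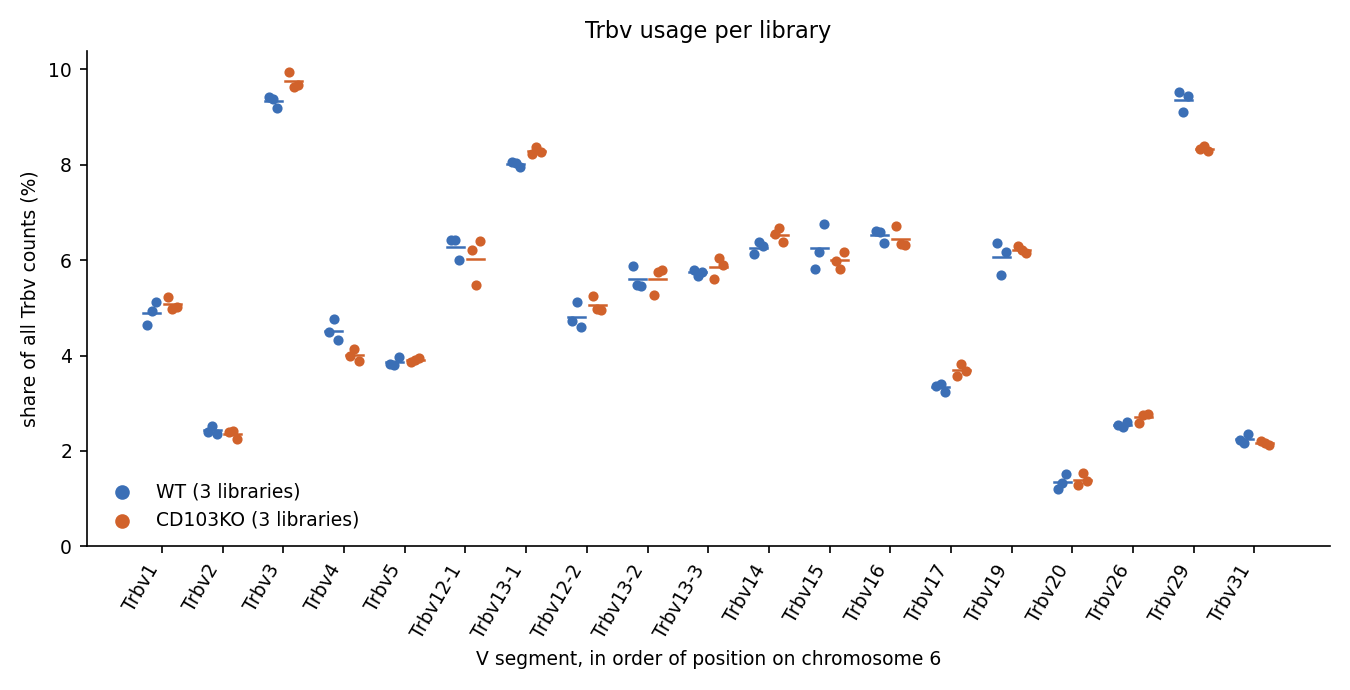
Share of each V segment among all Trbv counts (percent, vertical axis) for the 19 segments with a mean share of at least 1%, in chromosomal order. Each point is 1 library and each short line a group mean of 3 libraries. Trbv29 sits at 9.10% to 9.51% in WT and at 8.29% to 8.39% in CD103KO, while most other segments overlap between the groups.

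The V profiles of both groups were close. Across the 19 segments the mean shares of WT and CD103KO had a Pearson's r of 0.99 and a Spearman's rho of 0.99, as a description over segments that share libraries. The effective number of V segments, the exponential of the Shannon entropy of the shares, was 17.7, 17.8 and 17.8 in WT and 17.7, 17.9 and 17.8 in CD103KO. Its means were 17.7 ± 0.0730 and 17.8 ± 0.0945 (SD, n = 3 each; exact two-sided permutation p = 0.4). As ratios of the mean share in CD103KO to that in WT, the values farthest from 1 among the 19 segments were 0.888 for Trbv4, 0.891 for Trbv29 and 1.11 for Trbv17. On the CPM scale the largest fitted fold was 1.13, for Trbv17.

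None of the 24 members with enough counts for the edgeR quasi-likelihood test passed an adjusted p of 0.05, where 0.223% of the 13470 genes tested did (0.141% higher and 0.0817% lower). None passed with DESeq2 either (1.02% of all genes) or with limma-voom (0.215%). At an unadjusted edgeR p under 0.05 there were 4 of 24, which were Trbv17 and Trbv3 with positive and Trbv29 and Trbv4 with negative log2 fold changes, against 8.73% of all genes. The median log2 fold change of the 24 was 0.05, against -0.00253 over all genes tested, and 17 of the 24 were positive, against 49% of all genes. The 24 were 21 V genes, the pseudogene Trbv24, Trbc1 and Trbc2. Of the 29 members that were not tested, 24 were at 0 in every library.

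**Figure D2:**
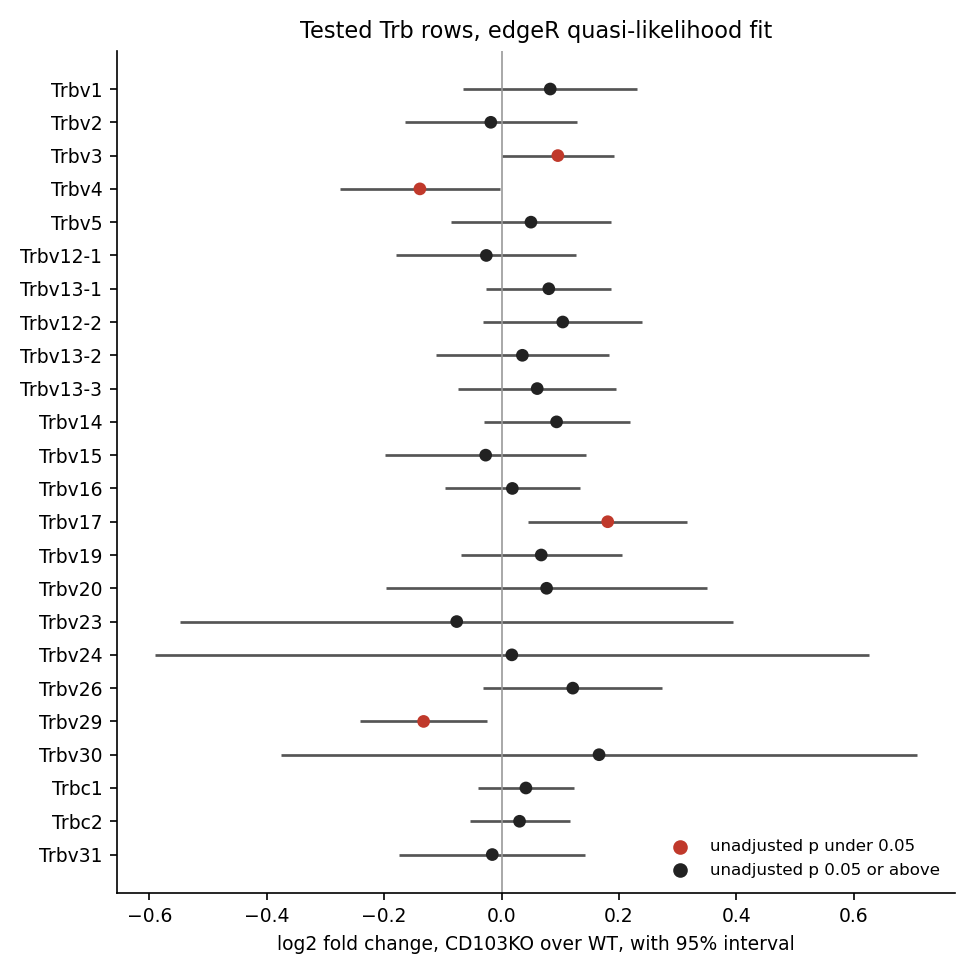
Log2 fold change of CD103KO over WT (horizontal axis) for the 24 tested members in chromosomal order, from the edgeR quasi-likelihood fit, with 95% intervals as bars. Points with an unadjusted p under 0.05 are red (Trbv3, Trbv4, Trbv17 and Trbv29), and none of the 24 passed after adjustment over all genes.

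Trbv29 (ENSMUSG00000076480.2, chromosome 6, 41271394 to 41271881, plus strand) had the largest difference in share, in percentage points, between the groups. Its share was 9.51%, 9.10% and 9.43% in WT, and 8.33%, 8.39% and 8.29% in CD103KO. Every CD103KO library lay below every WT library. The means were 9.35% ± 0.217 and 8.33% ± 0.0499 (SD, n = 3 each), a difference of -1.01 percentage points with p = 0.1 by the exact two-sided permutation test. On the CPM scale Trbv29 averaged 46.3 ± 1.53 in WT and 42.2 ± 0.627 in CD103KO. Its log2 fold change, -0.13 (SE 0.05), did not pass (unadjusted p = 0.0216, adjusted p = 0.477, edgeR). In the 2 V profiles the order of the count shares was exchanged, with Trbv29 just ahead of Trbv3 in WT and behind it in CD103KO. Trbv29 and Trbv3 count shares overlapped within WT. Per exon length there was no exchange, with mean shares of 10.3% for Trbv29 and 7.98% for Trbv3 in WT, and 9.20% and 8.34% in CD103KO.

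Trbv4 (ENSMUSG00000107486.1, chromosome 6, 41059394 to 41059886, plus strand) was the other segment with lower shares in every CD103KO library. It held 4.49%, 4.76% and 4.32% of Trbv counts in WT and 4.0%, 4.14% and 3.89% in CD103KO, means of 4.52% ± 0.221 and 4.01% ± 0.124 (SD, n = 3 each). The gap between the groups lay between WT replicate 3 and CD103KO replicate 2. Its log2 fold change was -0.14 (SE 0.06, unadjusted p = 0.0471, adjusted p = 0.565, edgeR). Counts of Trbv4 and Trbv5 are uncertain. Both lie within the span of the lincRNA 5830405F06Rik (chromosome 6, 41055883 to 41063102, plus strand), which shares 72.1% of the 50-base words of Trbv4 and 77.4% of those of Trbv5. The expected counts of these 3 genes were fractional in each library. The summed share of Trbv4 and Trbv5 was 8.30%, 8.56% and 8.28% of Trbv counts in WT and 7.86%, 8.04% and 7.85% in CD103KO, with no overlap (exact two-sided permutation p = 0.1). With the lincRNA added, and on the CPM scale, the 3 genes gave 46.4, 48.0 and 49.1 CPM in the WT and 45.3, 47.2 and 46.1 CPM in the CD103KO libraries. On that scale the groups overlapped (exact two-sided permutation p = 0.2). Both the genes and the scale differ from those of the summed share, so the overlap cannot be put down to the lincRNA. Trbv5 itself held 3.81%, 3.80% and 3.97% of Trbv counts in WT and 3.86%, 3.90% and 3.96% in CD103KO, which overlapped.

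Trbv17 (ENSMUSG00000076474.3, chromosome 6, 41163062 to 41163556, plus strand) had the smallest p of all members. Its share was 3.37%, 3.40% and 3.23% in WT and 3.56%, 3.82% and 3.68% in CD103KO, and no library of either group reached into the other. The means were 3.33% ± 0.0906 and 3.69% ± 0.130 (SD, n = 3 each). In CPM it measured 16.4, 16.7 and 16.4 in the WT and 17.8, 19.5 and 18.8 in the CD103KO libraries. The log2 fold change, 0.18 with an SE of 0.06, did not pass (unadjusted p = 0.0147, adjusted p = 0.446, edgeR).

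Trbv3 (ENSMUSG00000076463.2, chromosome 6, 41048290 to 41048828, plus strand), the segment with most counts over the 6 libraries, held 9.43%, 9.38% and 9.18% of Trbv counts in WT and 9.95%, 9.62% and 9.66% in CD103KO. Again the groups did not overlap, with means of 9.33% ± 0.133 and 9.74% ± 0.178 (SD, n = 3 each). Its log2 fold change was 0.10 (SE 0.04, unadjusted p = 0.0489, adjusted p = 0.569, edgeR). Trbv13-1 had shares of 8.06%, 8.03% and 7.96% in WT and 8.21%, 8.37% and 8.27% in CD103KO. Trbv14 had shares of 6.12%, 6.38% and 6.29% in WT and 6.54%, 6.67% and 6.39% in CD103KO, where the highest WT and the lowest CD103KO library were almost level.

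In all, the shares of 6 of the 26 V segments with any count did not overlap between the groups, 4 higher and 2 lower in CD103KO. When the counts of all 13470 tested genes were divided by the same Trbv totals, 14.8% did not overlap (4.22% higher and 10.5% lower). Each of the 6 had an exact two-sided permutation p of 0.1, and shares sum to a fixed total, so that the 6 are not independent of each other. On the CPM scale, 8 of the 24 tested members did not overlap, 6 higher (Trbv3, Trbv12-2, Trbv13-1, Trbv14, Trbv17 and Trbv19) and 2 lower (Trbv4 and Trbv29), against 14.2% of all genes (6.82% higher and 7.36% lower). The count of 6 was 11 without WT replicate 3, and 13 when only WT replicate 3 stood for WT. Separation is easier with fewer samples, as in both of these settings. The count was 4 when Trbv4 and Trbv5, or Trbv29, were taken out of the total, 2 settings chosen after seeing the data. No share over all genes was computed for any of these settings, so these counts cannot be set beside the 14.8%. B cell markers and Xist reads also differed between the groups as given above. The part of the B cell markers in these differences was not tested. In an edgeR fit with a term for Xist reads, only WT replicate 3 stood for WT, so effect sizes alone are given. The log2 fold changes were then 0.0848 for Trbv3, -0.108 for Trbv4, 0.191 for Trbv17 and -0.180 for Trbv29. The part of Xist reads in the shares was not tested.

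The other segments that reached a 3% share overlapped between the groups. Trbv16 averaged 6.52% ± 0.132 in WT and 6.45% ± 0.222 in CD103KO, Trbv15 6.24% ± 0.467 and 5.99% ± 0.176, and Trbv12-1 6.28% ± 0.25 and 6.03% ± 0.494 (SD, n = 3 each). Trbv19 averaged 6.07% ± 0.344 and 6.22% ± 0.0778, Trbv12-2 4.81% ± 0.275 and 5.06% ± 0.169, and Trbv1 4.90% ± 0.246 and 5.07% ± 0.128. The Trbv13 family is the set of 3 closely related segments long known from the antibodies that detect its members. Trbv13-2 averaged 5.60% ± 0.238 and 5.60% ± 0.298, and Trbv13-3 5.74% ± 0.0691 and 5.85% ± 0.227 (SD, n = 3 each). The 3 members together held 19.2% to 19.7% in WT and 19.1% to 20.2% in CD103KO. Over their last 290 bases Trbv13-2 and Trbv13-3 were 91.7% identical and shared 1 word of 50 bases, so few reads of that length could fit both.

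**Figure D3:**
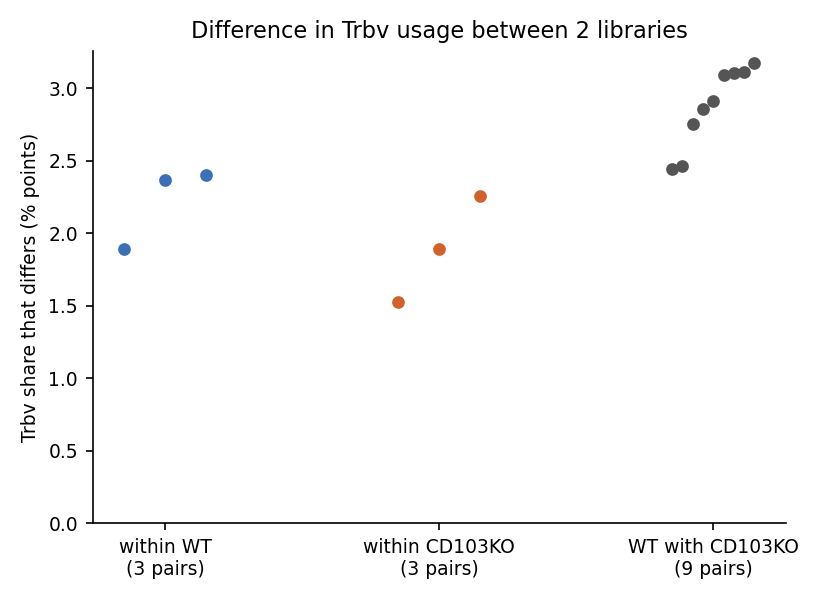
Difference in V usage between pairs of libraries, as the percentage points of Trbv share that differ (vertical axis, from 0), with 1 point per pair. Pairs within WT lie at 1.89 to 2.40, pairs within CD103KO at 1.53 to 2.26 and pairs of a WT with a CD103KO library at 2.44 to 3.17 percentage points.

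V usage was also compared between pairs of libraries. Within WT, 1.89 to 2.40 percentage points of the Trbv share differed between 2 libraries, and within CD103KO 1.53 to 2.26. A WT and a CD103KO library differed by 2.44 to 3.17 percentage points, so that each of the 9 such pairs lay above all 6 pairs within a group, by a small margin at the lower end. The pairs share libraries and are given with no test. Within groups, a chi-square of the counts of the 24 V segments with at least 30 counts in all was 2.14 to 4.07 times its degrees of freedom, and between groups 3.43 to 5.17 times. This chi-square takes reads as independent molecules and covers counting error only, so it does not separate technical from other differences between libraries.

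Pseudogenes took 0.124% ± 0.0135 of Trbv counts in WT and 0.122% ± 0.0131 in CD103KO (SD, n = 3 each; exact two-sided permutation p = 0.9). Of the 13, 9 were at 0 in every library. Trbv24 had 237 counts over the 6 libraries, Trbv22 had 47, Trbv10 had 3 and Trbv12-3 had 2. Trbv8, one of those at 0, shares all of its 50-base words with the gene AC153851.1, so its zero is uncertain. Among V genes, Trbv21 was the lowest, at 2 to 15 counts per library, and was not tested. Trbv23 and Trbv30 held 80 to 128 and 53 to 95 counts per library.

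The ends of Trbv24 and of Trbv26, a closely related V gene, are shown because the pair differs at few bases and by a wide margin in counts. Capitals mark the 6 of 45 bases that differ, with positions counted from 1 at the 5′ end of the stretch. The windows are chr6:41227949-41227993 for Trbv26 and chr6:41218513-41218557 for Trbv24, plus strand of GRCm38.
Trbv26: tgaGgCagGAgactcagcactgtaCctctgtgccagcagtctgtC
Trbv24: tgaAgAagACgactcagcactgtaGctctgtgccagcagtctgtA

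The change C25G turns the TAC codon of Trbv26, which begins at base 23, into the stop codon TAG in Trbv24. Trbv26 had 923, 1177 and 1048 counts in WT and 949, 958 and 1068 in CD103KO, whereas Trbv24 had 33, 46 and 47 in WT and 31, 34 and 46 in CD103KO. Trbv26 thus exceeded Trbv24 in every library, and neither passed the test between the groups (adjusted p = 0.661 for Trbv26 and 0.989 for Trbv24, edgeR). No word of 50 bases was shared between them.

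The constant regions are near copies of each other, and exon 3 is shown because most of their coding differences lie there. Over 518 coding bases 23 differed (95.6% identity), 1 of them (C260A, counted from the first coding base) in the 375 bases of the first exon and 15 in the 107 bases of exon 3. Capitals mark the differing bases. The windows are chr6:41539229-41539335 for Trbc1 and chr6:41547772-41547878 for Trbc2, plus strand of GRCm38.
Trbc1: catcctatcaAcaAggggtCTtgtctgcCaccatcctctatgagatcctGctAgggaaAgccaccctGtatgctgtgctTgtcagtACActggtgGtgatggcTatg
Trbc2: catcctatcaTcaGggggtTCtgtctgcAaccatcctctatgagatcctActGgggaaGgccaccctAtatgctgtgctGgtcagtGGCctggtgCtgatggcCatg

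Trbc2 was the more abundant constant region in every library. Trbc1 (ENSMUSG00000076490.6, chromosome 6, 41538218 to 41539881) measured 359, 367 and 363 CPM in WT libraries and 380, 377 and 363 CPM in CD103KO libraries. Trbc2 (ENSMUSG00000076498.2, chromosome 6, 41546730 to 41548352) measured 808, 804 and 851 CPM in WT libraries and 827, 839 and 850 CPM in CD103KO libraries. The groups overlapped for both, with log2 fold changes of 0.04 for Trbc1 (SE 0.04, adjusted p = 0.776, edgeR) and 0.03 for Trbc2 (SE 0.04, adjusted p = 0.844). The 95% intervals of these changes ran from -0.04 to 0.12 for Trbc1 and from -0.05 to 0.12 for Trbc2. With a term for Xist reads the Trbc2 value turned to -0.0209.

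Trbc1 made up 30.7%, 31.3% and 29.9% of Trbc1 and Trbc2 counts in WT and 31.5%, 31.0% and 29.9% in CD103KO. The groups overlapped over nearly their whole range, with means of 30.7% ± 0.735 and 30.8% ± 0.792 (SD, n = 3 each), a difference of 0.152 percentage points and an exact two-sided permutation p = 0.7. The sign of that difference turned without WT replicate 3 (-0.235) and without CD103KO replicate 1 (-0.178), and it was 0.925 with WT replicate 3 alone for WT. The 95% Wilson intervals of single libraries, which cover counting error only, were narrower than the spread between libraries, for example 29.6% to 30.2% in WT replicate 3 and 31.1% to 31.6% in WT replicate 2. Per exon length (749 bases for Trbc1 and 692 for Trbc2) the Trbc1 share was 28.2% to 29.8%. The split is uncertain, since 40.5% of the 50-base words of Trbc1 also occur in Trbc2 and the deposited counts of each are fractional, while their sum is a whole number in each library.

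**Figure D4:**
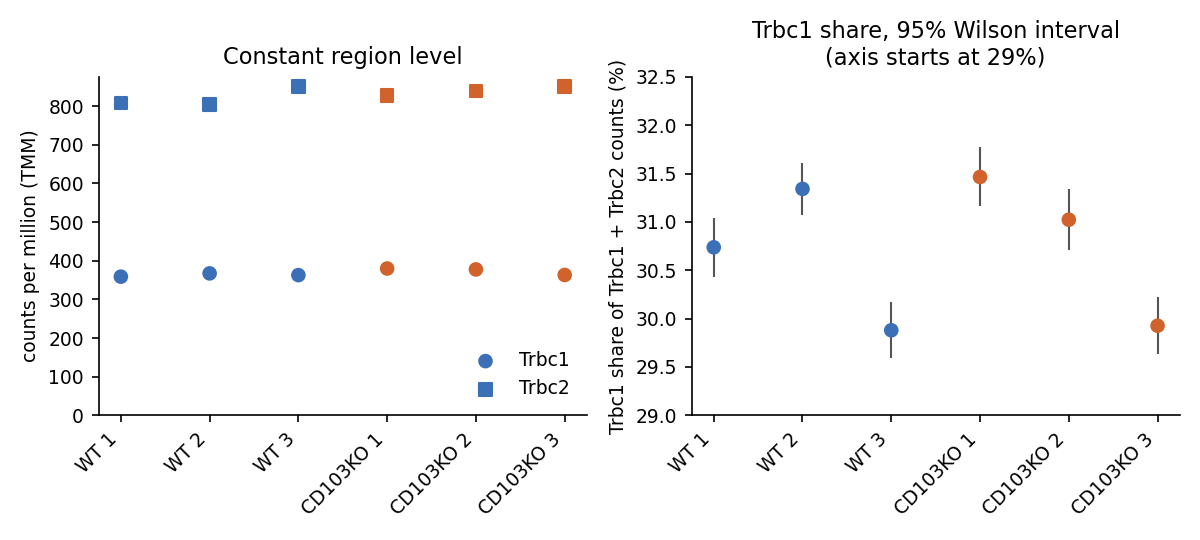
Left, Trbc1 (circles) and Trbc2 (squares) in CPM per library, WT in blue and CD103KO in orange, with the axis from 0. Right, the Trbc1 share of Trbc1 plus Trbc2 counts per library in percent with 95% Wilson intervals, on an axis that starts at 29%; both groups span about the same range, from 29.9% to 31.5%.

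A list of 24 genes, of which 20 were tested, held partners of the beta chain and genes that act in the joining of its segments. It also held constant regions of the gamma and delta chains, among them Tcrg-C4. None of the 20 passed (edgeR), and none passed with DESeq2 or limma-voom. At an unadjusted edgeR p under 0.05, 2 were higher (Cd3g and Lig4) and 1 lower (Tcrg-C4), against 8.73% of all genes. Their median log2 fold change was 0.02. Trac, the constant region of the alpha chain that pairs with beta, averaged 550 ± 22.3 CPM in the WT and 554 ± 19.5 CPM in the CD103KO libraries (SD, n = 3 each), and Cd3e, a signalling chain of the receptor complex, at 407 ± 12.1 and 414 ± 5.77 CPM. Cd3g, another signalling chain, was at 740 ± 21.8 and 793 ± 10.7 CPM and differed by 0.10 on the log2 scale (SE 0.04, adjusted p = 0.497, edgeR). Lig4, the ligase that seals the joined ends, was at 9.22 ± 0.350 and 10.5 ± 0.900 CPM (adjusted p = 0.551, edgeR).

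Rag1, Rag2 and Ptcra were near 0, whereas Dntt was not. Rag1 and Rag2, which encode the recombinase, had 37 and 4 counts over the 6 libraries, 24 of the Rag1 counts in CD103KO replicate 2. Ptcra, the surrogate alpha chain that pairs with a new beta chain in the thymus, had 1 count. Dntt, the enzyme that adds untemplated bases at the joints, was detected at 12.3 ± 0.989 CPM in the WT and 11.7 ± 1.10 CPM in the CD103KO libraries (SD, n = 3 each; adjusted p = 0.864, edgeR).

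The locus also holds or borders 37 genes that are not T cell receptor segments, such as the trypsinogen genes, and 29 of them were at 0 in every library. Of the 3 tested none passed (edgeR, DESeq2 and limma-voom). The receptor tyrosine kinase gene Ephb6, beyond the end of the locus, averaged 19.2 ± 1.13 CPM in the WT and 20.9 ± 1.64 CPM in the CD103KO libraries. Prss2, a trypsinogen gene between the V and the D segments, was at 0.635 ± 0.148 and 0.559 ± 0.0894 CPM (SD, n = 3 each).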

How the data were processed

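Per the labels' protocols, column-purified RNA went into a stranded, ligation-based mRNA library kit. The submitters' processing notes name STAR 2.7.0f, RSEM, cutadapt 1.18 and bcl2fastq 2.20, and the builds GRCm38 and mm10. The release of the annotation, the strand setting and the use of reads with several alignments were not given in the sources used here. Expected counts per gene and library, not normalized, are what the authors deposited. A share of 6.48% of the values is fractional, and values were rounded for the count models. All 55450 identifiers matched GENCODE M21 (GRCm38), the source of coordinates and sequences. One count equals 0.0104 to 0.0147 CPM.

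Differences were tested with edgeR 4.0.16 (filterByExpr, minimum count 10, TMM, quasi-likelihood test, Benjamini-Hochberg over 13470 genes). DESeq2 1.42.0 and limma-voom (limma 3.58.1) served as alternatives, all in R 4.3.3. The edgeR fit was also run on simulated data, with folds larger than that of any tested member here. That run does not show whether changes of the size seen here would be called. Shares used the unrounded counts and exact two-sided permutation tests (SciPy 1.17.1). No library was a repeat of another of its group (chi-square of counts divided by degrees of freedom, 12.6 to 26.3, against counting error only). Named were Trbc1 and Trbc2, V segments of at least 3% share, those at an unadjusted p under 0.05 or without overlap, all D segments and the genes of smallest p in each list; Trbv20, Trbv23, Trbv24, Trbv26, Trbv30 and Trbv31 were named after their values were seen. The members and lists were chosen with earlier results of these data known. Alternatives were other scalings, filters and tools, unrounded counts, a replicate block, an Xist term, other denominators and each library left out. Recombination signals beside the V exons were not analysed here.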

Additional observations from a re-analysis of the deposited data

How the results depend on the processing

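No Trb member, no gene of the receptor and recombination list and no neighbouring gene passed under any of the 15 alternatives to the edgeR fit, and the smallest adjusted p of a member ranged from 0.220 (Trbv17, without CD103KO replicate 1) to 0.968 (Trbv29, without CD103KO replicate 2). The log2 fold changes of Trbv17, Trbv3, Trbv29, Trbv4 and Trbc1 kept their sign in all 15, and that of Trbc2 reversed to -0.0209 with the Xist term. The count of 6 V segments without overlap ranged from 6 to 11 with 1 library left out, 11 being without WT replicate 3. It was 13 with only the libraries without Xist reads, meaning those with at most 1 CPM of Xist. Fewer samples make separation easier, and no share over all genes was computed for these settings. The Trbc1 share difference of 0.152 percentage points ranged from -0.235 (without WT replicate 3) to 0.591 with 1 library left out, was also reversed at -0.178 without CD103KO replicate 1, and was 0.925 with only the libraries without Xist reads. The effective number of V segments differed by 0.0174 to 0.111 with 1 library left out and by 0.000607 with only the libraries without Xist reads, and the difference reversed to -0.0327 without Trbv29, a setting chosen after seeing the data; the cause of these reversals was not tested. Deviations of same-numbered libraries had correlations of -0.199, -0.00535 and -0.0299, so the numbers were not taken to pair the samples. With a replicate block 0 members passed. Between same-numbered libraries 8 V segments moved 1 way in every pair. The numbers were not taken to pair the samples and no share over all genes was computed, so that count is not read as a result. The exact sign-flip p was 0.75 for the Trbc1 share, 0.25 for the share of all counts and 0.25 for the effective number, where 0.25 is the smallest possible. The share of the Trbj1 cluster had no value under any setting, with 1 J count in all. For V segments of at least 1% share the 95% interval of a log2 fold change reached at most 0.27 to either side, for Trbv20, and was narrower for the others.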
